A study of Gallus gallus with 144 samples.

Results

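The proteasome and ubiquitin enzyme promoters are those CAGE peaks that the authors labelled as promoters of genes with a PSM, UBE2, USP or UBA symbol. CAGE sequences the capped 5′ ends of RNA, so that a peak marks a place where transcription starts. A symbol was taken where it began with PSMA to PSMG, USP or UBA followed by a digit, or with UBE2. This gave 254 of the 24969 labelled promoter peaks, at 90 of the 10437 genes with a label. There were 67 peaks at 33 PSM genes, 14 at 5 UBA genes, 76 at 22 UBE2 genes and 97 at 30 USP genes.

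The libraries came from brain, breast, heart, kidney, leg and liver of 24 chickens, 12 labelled fast growing and 12 slow growing, with 12 libraries in each of the 12 groups of tissue and growth type. Each bird gave all 6 tissues as whole-tissue RNA. The labels used here name no breed, age or treatment. The data were 1 list of 153662 peaks over all libraries on the GRCg6a build. It holds no value per library, so depth, peak height, replicate error, the tissue a peak came from and the difference between fast and slow growth were not analysed here. For the same reason no tissue label could be checked against its markers. The values below are counts, widths and distances, and those set against other genes are descriptions of this 1 list, with no test. Genes are not replicates, and the 95% Wilson intervals cover counting over genes only.

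The proteasome is the protease that degrades proteins marked with ubiquitin. Its 20S core is a barrel of alpha (PSMA) and beta (PSMB) subunits, and its 19S regulator of ATPases (PSMC) and non-ATPase subunits (PSMD) binds, unfolds and feeds in the substrate. Ubiquitin is activated by E1 enzymes (UBA), carried by E2 conjugating enzymes (UBE2), placed on the substrate with the help of E3 ligases, and removed again by deubiquitinating enzymes, of which the USP proteases are the largest family. In muscle this system breaks down myofibrillar proteins and is known for its part in wasting.

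The proteasome genes carried a promoter label more often than the enzymes and had fewer promoter peaks each. Of the 40 PSM genes in the RefSeq gene table, 33 had a label (82.5%, interval 68.0 to 91.3), against 21 of 32 UBE2 genes (65.6%, 48.3 to 79.6), 30 of 45 USP genes (66.7%, 52.1 to 78.6) and 57.0% of the 14357 protein-coding genes with a symbol. Of the 6 UBA genes, 5 had one. The intervals of the PSM, UBE2 and USP shares overlap. UBE2C, a conjugating enzyme of the cell cycle, was labelled but is not in that table, and does not enter the shares. Genes that the list names only by an Ensembl identifier count as unlabelled in these shares.

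Labelled PSM genes averaged 2.03 ± 0.81 promoter peaks (SD over 33 genes) and had 1 to 4. UBE2 genes averaged 3.45 ± 2.46 (22 genes, 1 to 13), USP genes 3.23 ± 1.74 (30 genes, 1 to 8) and UBA genes 2.80 ± 1.64 (5 genes, 1 to 5). All 10430 genes with promoters on 1 sequence and strand averaged 2.39 ± 1.63. The median was 2 peaks in PSM, UBA and all genes, and 3 in UBE2 and USP genes. The ranges of the classes overlap. In the upper part of the range, 2 of 33 PSM genes had 4 or more peaks (6.06%, interval 1.68 to 19.6), while 8 of 22 UBE2 genes (36.4%, 19.7 to 57.0) and 11 of 30 USP genes (36.7%, 21.9 to 54.5) did, beside 18.4% of all genes. With 5 or more peaks there were 0 PSM, 1 UBA, 3 UBE2 and 7 USP genes, beside 9.41% of all genes. A single peak was found at 8 PSM, 1 UBA, 2 UBE2 and 5 USP genes, beside 36.0% of all genes.

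**Figure D1:**
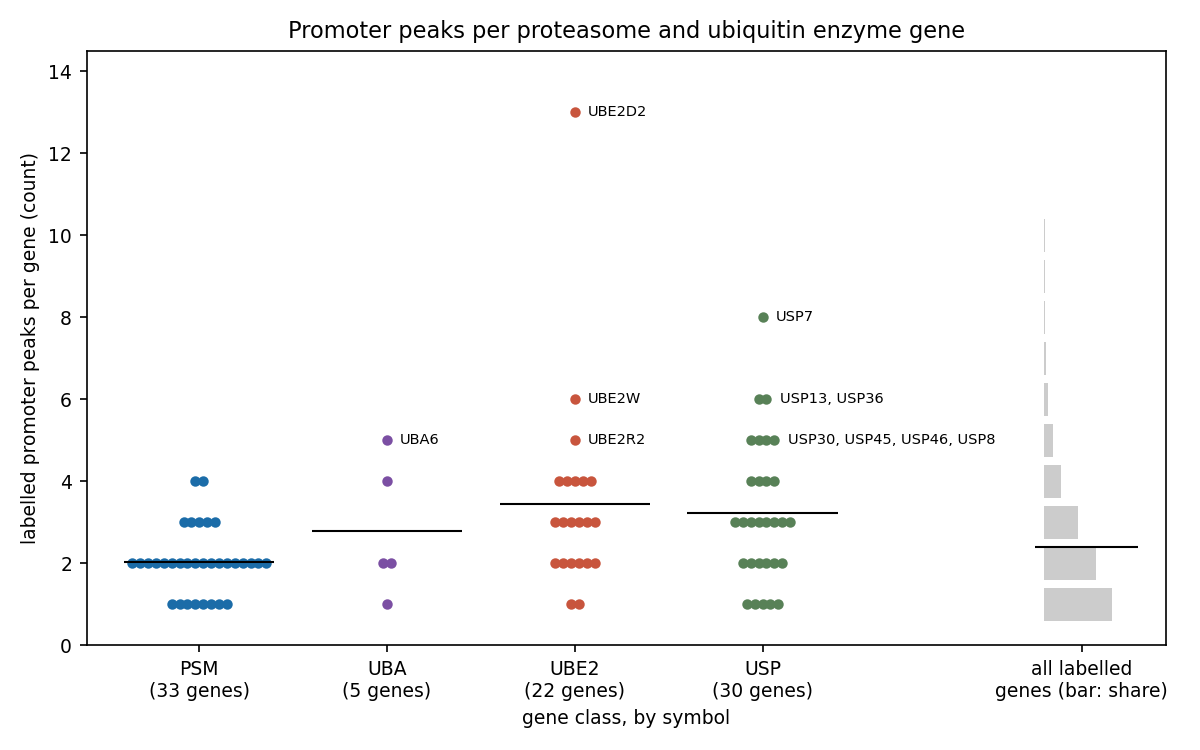
Each dot is 1 gene, placed by its number of labelled promoter peaks (vertical axis, count) in its symbol class (horizontal axis), with black lines at the class means. Grey bars at the right show the share of all labelled genes with each number of peaks. PSM genes stay at 4 peaks or fewer, while UBE2D2 reaches 13 and USP7 reaches 8.

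The core particle genes had few, closely set peaks, with PSMB1 as the exception. Among the PSMA genes, which build the outer rings and the gate of the barrel, PSMA2 had 3 promoter peaks, PSMA3, PSMA4, PSMA5 and PSMA6 had 2 each and PSMA1 had 1. Within each of these genes the representative positions of all peaks lay within 25 bp. PSMA7 had no label. Among the PSMB genes, which build the inner rings and hold the active sites, PSMB1 had 4 peaks, PSMB3 had 2, and PSMB2, PSMB4 and PSMB7 had 1 each. PSMB7 carries the trypsin-like activity, and PSMB5, which carries the chymotrypsin-like activity, had no label. The single peak of PSMB4 was 2 bp wide (chromosome 25, 386223 to 386224, minus strand). Over both kinds of subunit, 11 genes averaged 1.91 ± 0.94 peaks. The gene table used here has no entry under PSMA8, PSMB6, PSMB8, PSMB9, PSMB10 or PSMB11, of which PSMB8, PSMB9 and PSMB10 are the immunoproteasome subunits of mammals, so these were not analysed here.

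Among the genes of the 19S regulator, none of the 10 labelled PSMD genes had more than 2 peaks. Over all genes, 36.0% had 1 peak and 27.5% had 2, so nothing is read from this count. Of the ATPases, PSMC5 had 3 peaks and PSMC1, PSMC2 and PSMC6 had 2 each, and PSMC3 had no label. PSMC3IP, which the name pattern also takes, had 4. Its product is a cofactor of meiotic recombination and no subunit, and without it PSM genes averaged 1.97 peaks. Among the PSMD genes, PSMD14, which encodes the deubiquitinating subunit of the lid, had 2 peaks, as did PSMD5, PSMD7, PSMD9, PSMD12 and PSMD13. PSMD4, a ubiquitin receptor, and PSMD1, PSMD6 and PSMD10 had 1 each. PSMD5, PSMD9 and PSMD10 are assembly chaperones of the regulator rather than parts of the mature particle. PSMD2, PSMD3 and PSMD11 had no label. The gene table has no entry under PSMC4 or PSMD8, so these were not analysed here. Without PSMC3IP, the 14 labelled PSMC and PSMD genes averaged 1.79 ± 0.58 peaks.

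Of the genes of activators, the inhibitor and the assembly chaperones of the core, 7 of 8 in the gene table had a label. The share over all protein-coding genes with a symbol was 57.0%, and nothing is read from a count over 8 genes. PSME4, an activator of the core found in the nucleus, had 3 peaks within 27 bp, and PSME3, a nuclear activator that needs no ubiquitin, had 2 within 12 bp. PSME1 had no label. PSME2 has no entry in the gene table and was not analysed here. PSMF1, named as an inhibitor, had 3 peaks. The core assembly chaperone PSMG1 had 3 peaks, and PSMG2, PSMG3 and PSMG4 had 2 each.

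Activating enzyme genes differed among themselves. UBA6, an E1 for ubiquitin, had 5 peaks within 84 bp of chromosome 4 (51647250 to 51647339, minus strand), and UBA2, a subunit of the E1 for SUMO, had 4 within 58 bp. UBA3, of the E1 for NEDD8, had 1 peak, and UBA7 had no label.

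The conjugating enzyme with the most promoter peaks was UBE2D2, a broadly acting partner of many ligases. Its 13 peaks lay on chromosome 13 (1638493 to 1638992, plus strand), and 10 of the 10430 genes had as many. They fell into 3 groups when peaks with gaps of up to 20 bp were joined. Its paralogs UBE2D1 and UBE2D3 had 4 peaks each, within 86 and 56 bp, so that this family was not uniform. UBE2W, which can modify the amino terminus of proteins, had 6 peaks within 77 bp, and UBE2R2, a partner of cullin ligases, had 5 within 78 bp. Without UBE2D2 the UBE2 mean was 3 ± 1.26 (21 genes). UBE2E3, UBE2N, the E2 for lysine-63 chains in humans and mice, and UBE2QL1 were the others with 4. UBE2K, an E2 for chains that target to the proteasome, and UBE2T, which acts in DNA crosslink repair, had 1 each. UBE2A, UBE2E2 and UBE2L3 were among the 11 without a label.

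Among the deubiquitinating enzymes USP7, known for acting on MDM2 and p53 in humans, had 8 peaks on chromosome 14 (10318941 to 10319411, plus strand). The first was 24 bp wide, and the other 7 lay 334 to 457 bp further on. USP13 had 6 peaks within 86 bp, and USP36, a protease of the nucleolus, had 6 over 438 bp. USP8, which acts on endosomes, USP30, which sits on mitochondria, and USP45 and USP46 had 5 each. USP14, the enzyme that binds to the proteasome itself, had 3 within 39 bp, and USP5, which takes apart free ubiquitin chains, had 2 within 20 bp. USP2, USP12-like, USP44, USP53 and USP54 had 1 each, and the peaks of USP44 and USP53 were 1 bp wide. USP6NL, which the pattern also takes, encodes a GTPase-activating protein. USP16, USP19, USP20 and USP21 were among the 15 without a label.

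Neighbouring promoter peaks over 100 bp apart were found at 2 of 33 PSM genes (6.06%, interval 1.68 to 19.6), 4 of 22 UBE2 genes (18.2%, 7.31 to 38.5) and 7 of 30 USP genes (23.3%, 11.8 to 40.9), beside 19% of all genes. The share in UBE2 and USP genes was thus near that of all genes, and that in PSM genes below it, with an interval that takes in the share of all genes. The PSM genes were PSMB1 and PSMC2. The UBE2 genes were UBE2D2, UBE2E3, UBE2N and UBE2Z, and the USP genes USP7, USP8, USP22, USP34, USP36, USP45 and USP46. The widest spread among members was that of UBE2E3, at 798 bp on chromosome 7. Its peaks lay at 0, 66, 168 and 798 bp, and the second was 71 bp wide. USP22, the protease of the SAGA coactivator, had 2 peaks of 33 and 21 bp that lay 343 bp apart. No member reached 1000 bp, while the spread over all genes went up to 678999 bp.

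**Figure D2:**
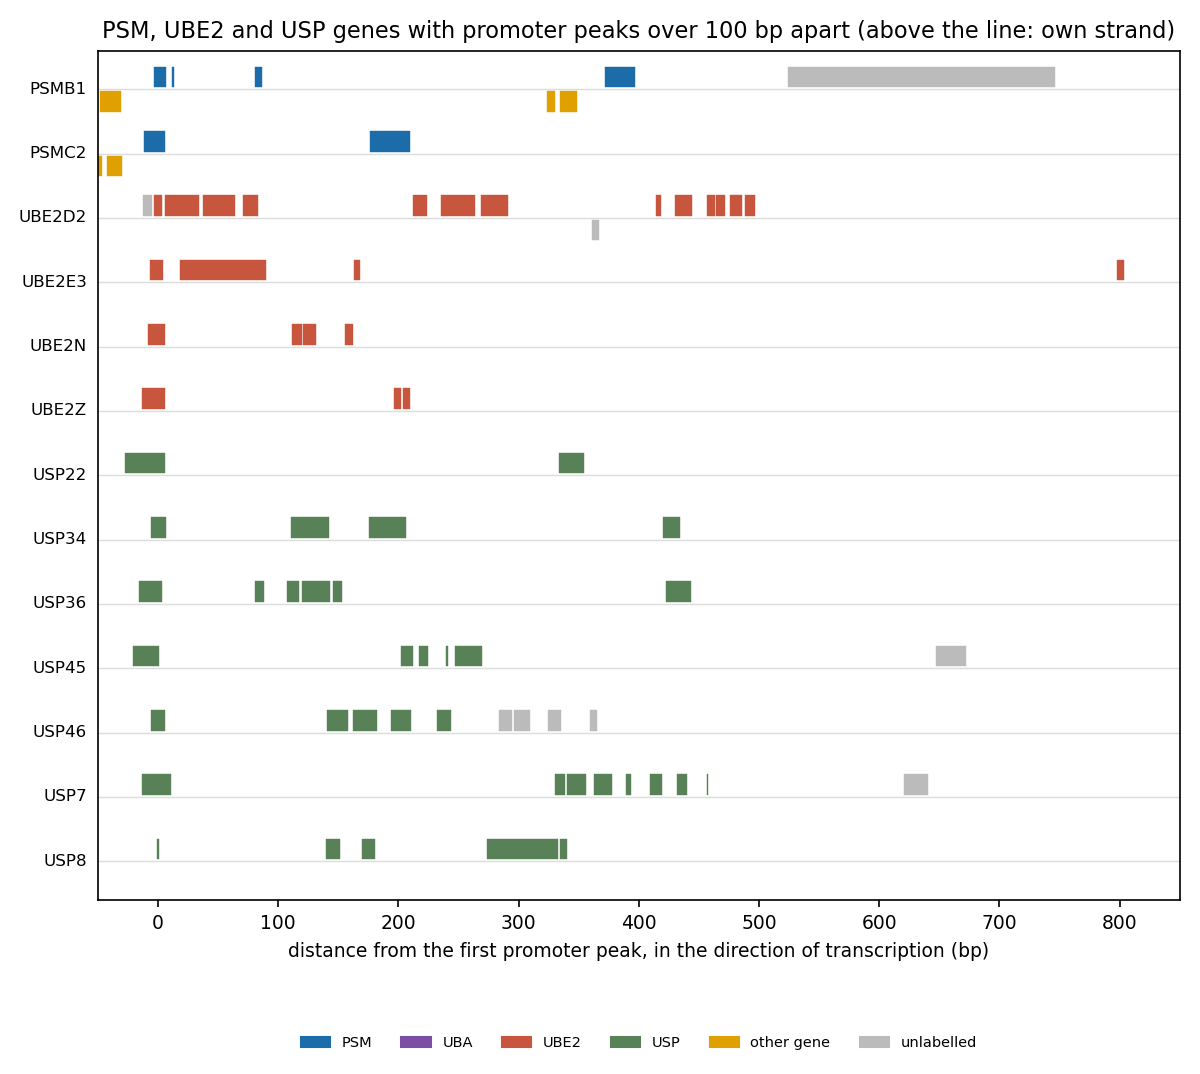
Peaks of the 13 PSM, UBE2 and USP genes with neighbouring promoter peaks over 100 bp apart, drawn to scale by distance from the first promoter peak (horizontal axis, bp), 1 gene per line. Blocks above a line are on the strand of the gene and those below it on the opposite strand. UBE2D2 shows 3 groups of peaks, USP7 a lone first peak and a group of 7, and PSMB1 interleaves with TBP.

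Joining neighbouring peaks brought UBE2 genes close to all genes. When peaks of a gene with gaps of up to 20 bp were merged, 30 of 33 PSM genes had 1 group (90.9%, interval 76.4 to 96.9), the exceptions being PSMB1, PSMC2 and PSMF1. UBE2 genes had 1 group in 16 of 22 cases (72.7%, 51.8 to 86.8) and USP genes in 19 of 30 (63.3%, 45.5 to 78.1), beside 70.6% of all genes. The mean number of groups was 1.12 in PSM, 1.41 in UBE2, 1.57 in USP and 1.43 in all genes. By their means, UBE2 genes thus had more peaks than all genes but about as many groups, and USP genes had more of both. PSM genes had fewer of both by the mean, while their median number of peaks was 2, as in all genes. In genes with several peaks, neighbouring peaks lay a median of 15.5 bp apart in PSM genes, 24 in UBE2 genes, 22 in USP genes and 23 in all genes. The whole promoter spread over a median of 25 bp in the 25 PSM genes with several peaks, 42.5 bp in 20 UBE2 genes, 57 bp in 25 USP genes and 48 bp in 6672 genes.

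The median width was 8 bp in PSM, 9.5 bp in UBE2, 10 bp in USP and 9 bp in all labelled peaks. After merging peaks within 20 bp, the median was 27 bp in PSM, 39 bp in UBE2, 26 bp in USP and 21 bp in all genes, so that PSM widths lay below those of all genes before merging and above them after it. Peaks over 30 bp wide made up 1 of 67 PSM peaks, 3 of 76 UBE2 peaks and 6 of 97 USP peaks, beside 6.79% of all labelled peaks. The PSM case was the downstream peak of PSMC2, 33 bp wide (chromosome 1, 13132802 to 13132834, plus strand). The widest peaks of UBE2 and USP genes belonged to UBE2E3 (71 bp), USP8 (59 bp) and UBE2T (46 bp). Over all 4 classes, 1 of 254 member peaks was over 100 bp wide, beside 1.14% of all labelled peaks. At 1 bp stood 11 member peaks, 3 of them in PSM genes, namely PSMA5, PSMD12 and PSMG1, beside 5.65% of all labelled peaks. In each of these 3 a second, wider peak was also labelled. The bases under all peaks of a gene came to a median of 20 bp in PSM, 39 in UBE2 and 36.5 in USP genes, beside 23 in all genes.

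**Figure D3:**
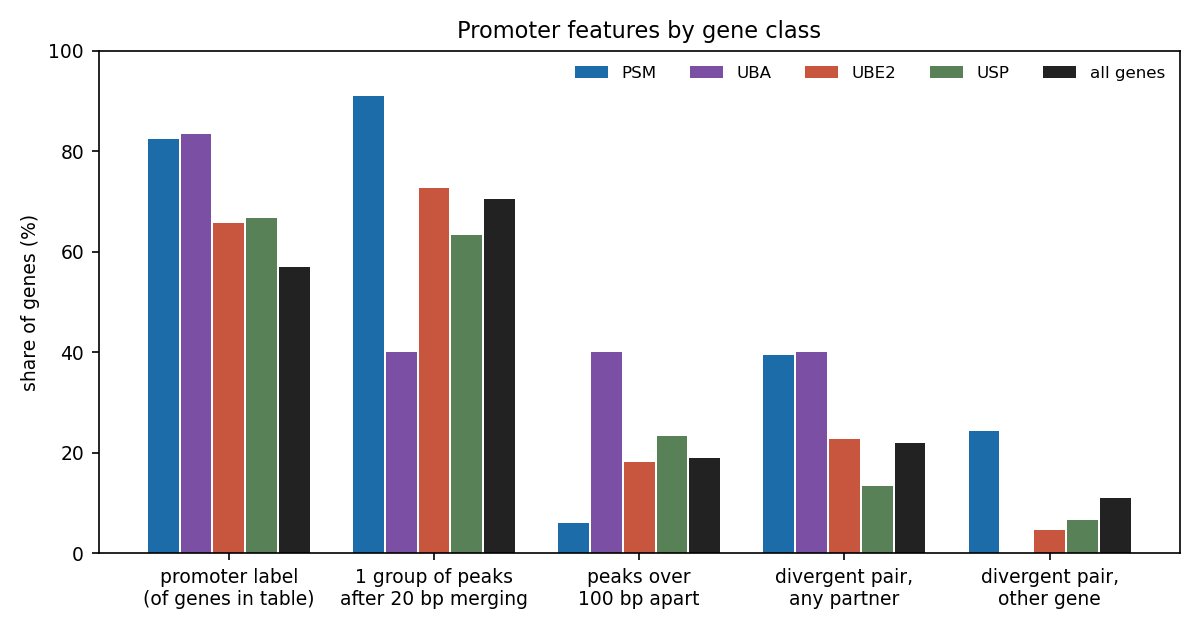
Bars give the share of genes (vertical axis, %) with each of 5 promoter features (horizontal axis) for PSM, UBA, UBE2 and USP genes and for all genes. The UBA bars rest on 6 genes for the label and 5 for the others. PSM genes stand at 90.9% for 1 group of peaks and 24.2% for a divergent pair with another gene.

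Some proteasome promoters were set back to back with the promoter of another gene. A divergent pair is a minus-strand peak followed by a neighbouring plus-strand peak whose representative positions lie up to 400 bp apart. Of the 33 PSM genes, 8 had such a pair with the labelled promoter of another gene (24.2%, interval 12.8 to 41.0). Of the UBE2 genes 1 of 22 did (4.55%, 0.807 to 21.8), of the USP genes 2 of 30 (6.67%, 1.85 to 21.3) and of the 5 UBA genes 0, beside 11% of all genes. The interval of the PSM share lay above the share of all genes and overlapped those of the UBE2 and USP shares. Such pairs were not particular to PSM genes, since HECT and RBR ligases had them at 5 of 15 genes (33.3%). The other pathway lists described below lay between 0% and 16.7%. With pairs up to 200 bp apart, 6 PSM genes remained (18.2%, interval 8.61 to 34.4), and the interval then took in the 8.96% of all genes. In the GRCg7b gene order, the genes of each of these 11 member pairs are direct neighbours.

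Both kinds of core subunit had a case. PSMB1 lay against TBP, the TATA-binding protein of general transcription, on chromosome 3. The first peak of PSMB1 (40804032 to 40804041, plus strand) was 34 bp from the nearest TBP position. TBP had 2 further peaks 327 and 344 bp into the PSMB1 promoter, followed by the last PSMB1 peak at 375 bp, which was 25 bp wide. The promoters of these genes therefore interleaved on opposite strands. PSMA2 lay 339 bp from MRPL32, a mitochondrial ribosomal protein gene, the longest of the PSM distances.

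Of the 8 genes, 2 encode subunits of the regulator and 2 its assembly chaperones. The subunit gene PSMC2 lay 38 bp from DNAJC2, a chaperone that works at the ribosome, and PSMC5 235 bp from FTSJ3, which acts in ribosomal RNA processing. Of the chaperone genes, PSMD9 lay 40 bp from HPD, a liver enzyme of tyrosine breakdown with 3 promoter peaks, and PSMD10 lay 185 bp from ATG4A, a protease of autophagy. Beyond the regulator, the activator gene PSME3 lay 161 bp from BECN1, which starts autophagy, and the chaperone gene PSMG2 lay 52 bp from CEP76, a centrosome protein gene. The 9 PSM pairs, of which PSMB1 and TBP gave 2, had a median distance of 52 bp, beside 98 bp over all 600 pairs between promoters of different genes. With PSMB1 and TBP counted once, the middle of the 8 distances fell between 52 and 161 bp. The PSM distances are therefore not read as shorter than those of all pairs. The enzymes with a pair were UBE2D1 with CISD1, a mitochondrial iron-sulfur protein gene (243 bp), USP37 with CNOT9, a subunit of the mRNA deadenylase complex (187 bp), and USP5 with CDCA3, a cell cycle gene (331 bp).

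**Figure D4:**
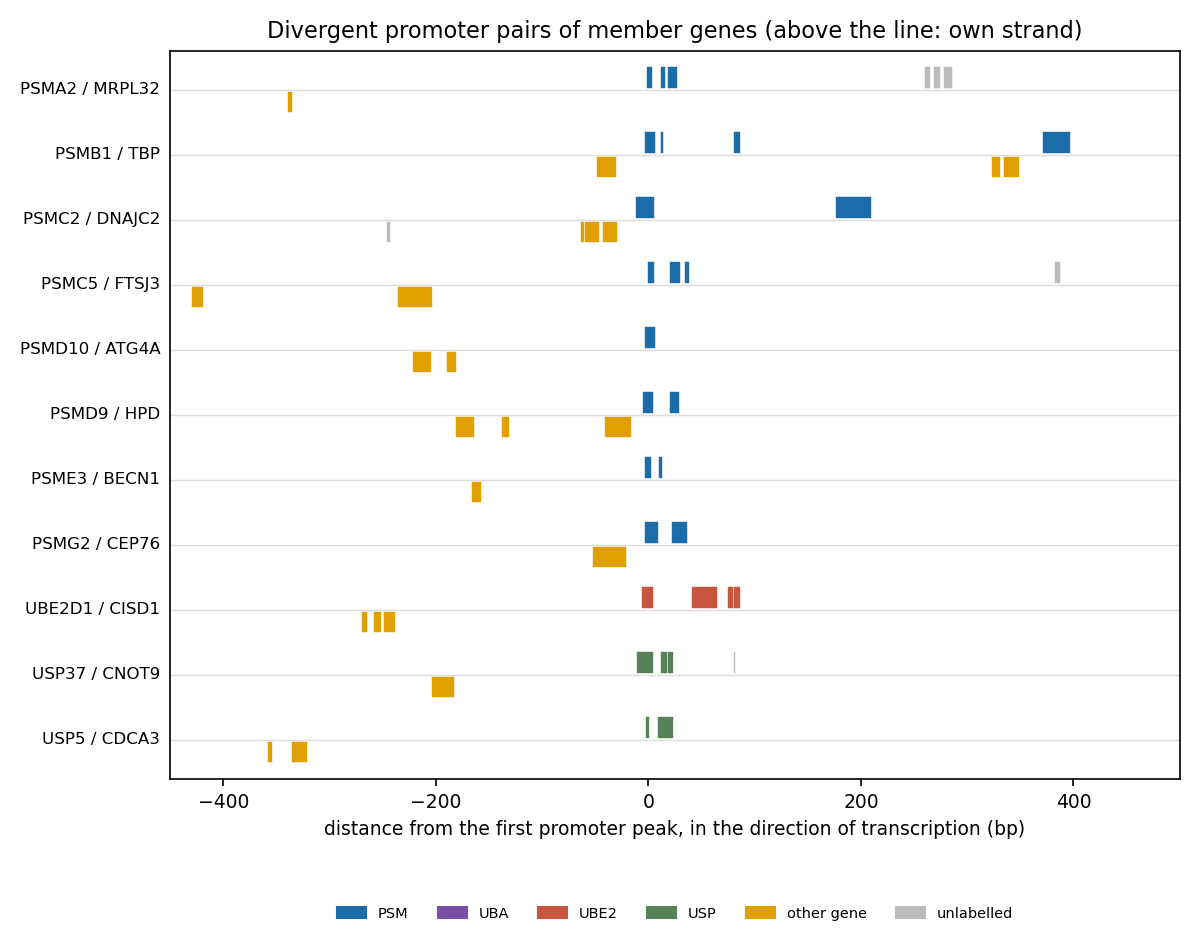
Promoter peaks of the 11 member genes in a divergent pair with another labelled gene, by distance from the first promoter peak of the member (horizontal axis, bp), 1 pair per line with the member named first. Blocks above a line are on the strand of the member and those below it on the opposite strand, and ochre marks the partner gene. Partner peaks lie upstream in every pair, and at PSMB1 also inside the promoter.

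Counting unlabelled partners too, 13 of 33 PSM genes were in a divergent pair (39.4%, interval 24.7 to 56.3), against 5 of 22 UBE2 genes (22.7%, 10.1 to 43.4) and 4 of 30 USP genes (13.3%, 5.31 to 29.7), beside 21.9% of all genes. The PSM genes with an unlabelled partner were PSMD7 (59 bp), PSMD13 (82 bp), PSMA6 (130 bp), PSMA5 (250 bp) and PSMB4 (256 bp). Those of the UBE2 class were UBE2D2 (49 bp), UBE2D3 (68 bp), UBE2W (80 bp) and UBE2R2 (130 bp). Those of the USP class were USP34 (106 bp) and USP7 (135 bp). An unlabelled peak on the opposite strand within 500 bp upstream, paired or not, was found at 6 PSM, 1 UBA, 3 UBE2 and 2 USP genes, beside 12.5% of all genes.

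Unlabelled peaks were counted between 500 and 20000 bp downstream of the first promoter peak, a fixed window that can run past the end of the gene and into others. The PSM mean was 2.27 for the strand of the gene and 2.52 for the other strand. UBE2 genes had 3.36 and 3.18, USP genes 2.90 and 1.97, UBA genes 2.80 and 1.20, and all genes 2.43 and 1.88. The order of the own-strand means depended on the window. Up to 10000 bp the PSM mean lay above that of all genes (1.45 beside 1.35) and the USP mean below it (1.07). More peaks on the own strand than on the opposite one were found for 13 PSM, 2 UBA, 8 UBE2 and 11 USP genes, 37.8% of members beside 41.8% of all genes. A share this near the background is no result about the members. No peak on the own strand was found for 7 PSM, 2 UBA, 4 UBE2 and 9 USP genes, beside 29.7% of all genes.

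The members with the longest runs on their own strand were enzymes. USP36 had 16 unlabelled peaks on its strand and 1 on the other, USP5 had 16 and 4, USP2 15 and 2, and UBE2M, the E2 for NEDD8, 15 and 2. These genes were picked by their values. The window of USP5 also held the labelled promoters of TPI1, a glycolytic enzyme gene, and LRRC23 on the same strand, that of USP36 held CYTH1, and that of UBE2M held CHMP2A and gga-mir-12291. The peaks in these windows thus cannot be given to the member alone. The window of USP2 held no other labelled gene. UBE2C had 10 and 25, and TNNC2, a fast muscle troponin gene, was labelled on the opposite strand in its window. On the own strand of UBE2C, 3 other genes were labelled in that window, SNX21 among them. These peaks cannot be given to UBE2C alone either. The highest own-strand count among PSM genes was 7, at PSMD4.

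**Figure D5:**
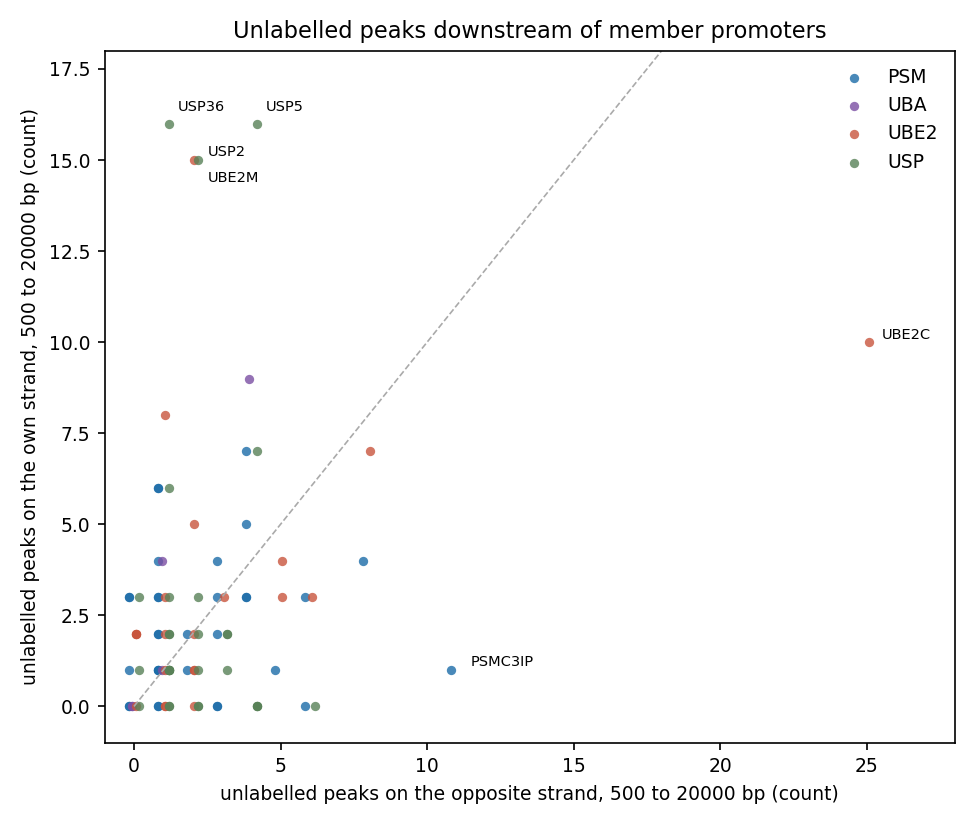
Each dot is 1 member gene, by the number of unlabelled peaks in the window from 500 to 20000 bp downstream, on the opposite strand (horizontal axis, count) and on its own strand (vertical axis, count), with small shifts sideways by class so that dots can be told apart. The dashed line marks equal numbers. USP36, USP5, USP2 and UBE2M lie at 15 or 16 on the own strand, and UBE2C at 25 on the opposite one.

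Wide unlabelled peaks lay just downstream of the first promoter peak at several proteasome genes, a pattern picked after the data were seen. Whether these peaks lie inside the gene was not tested. In the first 2000 bp downstream any unlabelled peak on the own strand was found at 13 PSM, 2 UBA, 5 UBE2 and 13 USP genes, beside 34.1% of all genes. Within 2000 bp of the first promoter peak, an unlabelled peak over 20 bp wide on the own strand was found at 6 of 33 PSM genes (18.2%), 1 of 22 UBE2 genes, 3 of 30 USP genes and 0 of 5 UBA genes, beside 9.43% of all genes. No test was run on these counts. The widest lay at PSMB1, 643 bp past its first peak (chromosome 3, 40804560 to 40804781, plus strand). It was 222 bp wide, and 43 of the 128693 unlabelled peaks of the list were as wide. The others lay at PSMB3 (59 bp wide, 337 bp past), PSMG3 (45 bp, 287 bp past), PSMA1 (37 bp, 342 bp past), PSMD14 (29 bp, 259 bp past) and PSMD7 (24 bp, 210 bp past). All 6 also counted with a window of 1000 bp, beside 7.21% of all genes, and 4 of them with a width over 30 bp, beside 4.97%. The enzyme genes with such a peak were UBE2G1, USP28, USP36 and USP45.

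Of the 34 members of the gene table without a label, 22 could be placed between labelled neighbours by gene order. The 22 stretches ran from 9211 to 1233809 bp and included other genes, and each held at least 1 unlabelled peak. The same was not counted for other genes, so nothing is read from it about the members. The stretch of PSMD3, between GSDMA and CSF3 on chromosome 27, held 3 in 10541 bp. That of PSMD11, between CDK5R1 and FZD2 on the same chromosome, held 3 in 15139 bp, and that of PSMA7, between LSM14B and MTG2 on chromosome 20, held 6 in 35304 bp. PSMC3, between RAPSN and SLC39A13 on chromosome 5, had 14 in 54002 bp. PSMD2, between CAMK2N2 and EIF4G1 on chromosome 9, had 25 in 20023 bp together with the promoters of 2 genes named by Ensembl identifiers, which were not matched to symbols. In 4 of the 22 stretches such an identifier was labelled. These peaks may belong to other genes of the stretch.

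The members lay on macrochromosomes and microchromosomes alike. Of the PSM genes, 16 of 33 lay on chromosomes numbered above 10 (48.5%), against 9 of 22 UBE2 genes (40.9%), 10 of 30 USP genes (33.3%) and 36.0% of all genes. Chromosome 5 held 6 PSM genes, namely PSMA1, PSMA3, PSMA6, PSMC1, PSMC6 and PSMD13. Chromosome 27 held 4, namely PSMB3, PSMC5, PSME3 and PSMC3IP, the last of which encodes no subunit. The share of all genes on these single chromosomes was not counted, so nothing is read from these counts.

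Other genes of the pathway gave a mixed picture. RPS27A, which encodes ubiquitin joined to a ribosomal protein, had 1 peak of 2 bp, and UBB, a polyubiquitin gene, had no label. Of 23 further genes of proteasome assembly and regulation, 17 had a label (73.9%), with a mean of 3.65 peaks. NFE2L2 and NFE2L1, transcription factors that induce proteasome genes in mammals under stress, had 14 peaks over 8035 bp of chromosome 7 and 9 over 1979 bp of chromosome 27, each in 5 separate promoters. ZFAND5, which stimulates the proteasome, had 5. TXNL1, ECPAS, DDI2 and NGLY1 were among the 6 without a label.

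Ubiquitin-like modifiers and their enzymes were labelled in 18 of 21 cases (85.7%), with SENP6, a SUMO protease, at 8 peaks, ATG10 and NEDD8 at 4 and PIAS4 at 3. UFC1, SENP5 and SENP7 had none. Cullin ligase genes stood at 21 of 32 (65.6%), with SPOP at 7, CUL1 at 5 and FBXW7 at 4, and CUL5, CUL9, SKP2 and ELOB among the 11 without. HECT and RBR ligases stood at 14 of 25 (56.0%), with UBE3C at 7, HECTD2 at 5 and ARIH2 and HERC2 at 4, and NEDD4L, ITCH, SMURF1 and SMURF2 among the 11 without. Other RING and U-box ligases stood at 24 of 36 (66.7%), with SIAH1 at 8, CBLB, TRAF6 and UBR2 at 5, and TRIM54, TRIM32, UBE4B and UBR3 among the 12 without. Deubiquitinating enzymes outside the USP family stood at 12 of 21 (57.1%), with OTUB1 and STAMBP at 4, BAP1 and BRCC3 at 2, and UCHL1, OTUD1, OTUD7A and YOD1 among the 9 without. Each share is to be read beside the 57.0% of all genes. Mean peaks per labelled gene ran from 2.06 in these deubiquitinating enzymes to 3.07 in HECT and RBR ligases.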

How the data were processed

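Per the labels' protocols, the authors took 5 µg of total RNA per library and used nAnT-iCAGE with molecular identifiers. STAR 2.7.9a, UMI-tools 1.1.4 and GRCg6a are listed, per the submitters' processing notes. For the peak caller's settings, the promoter rule and the annotation, nothing was given in the sources used here. The deposited list gave positions, a score and a further column that were both 1 in every row, and an offset read from its values as a representative position. Printed positions are 1-based. Depth is unknown, as no column is tied to a library, and the planned tests of growth type were not run. The planned motif search was not run, since no promoter sequence was used here.

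Names and gene order came from the RefSeq table of GRCg7b: 89 of 90 member genes matched, all on the same chromosome. The 7 genes labelled on several sequences or strands were left out of comparisons. Chromosome names were assigned by hand. Members, lists and windows were chosen with earlier results of these data known. Named genes were the 4 with the most peaks per class or list (ties by symbol), up to 4 without a label, those with peaks over 100 bp apart or in a divergent pair with another gene, and the 5 widest peaks. A few genes taken by the rule are left out of the text. Members named beyond this rule were chosen after their values were seen. Counting steps were tested on simulated peaks. Tools were Python 3.11.15, numpy 2.4.6, pandas 2.3.3, scipy 1.17.1 and matplotlib 3.10.9.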

Additional observations from a re-analysis of the deposited data

How the results depend on the processing

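No paired analysis was possible because the list holds no value per library. Values that moved by up to 1.5 times, or shares that stayed within their interval, are not repeated. At least 2 labelled peaks were found for 62.5% of PSM genes, beside 38.4% of all genes. Merging peaks within 20 bp gave a mean of 1.12 peaks in PSM, 1.60 in UBA, 1.41 in UBE2 and 1.57 in USP genes, and median widths of 27, 29, 39 and 26 bp, beside 1.43 peaks and 21 bp in all genes. PSM peaks thus went from narrower to wider than those of all genes. The widest peak of each gene had a median of 15, 19, 19 and 18 bp in the same order, beside 15 bp in all genes. With a distance of 200 bp, separate promoters remained at 1 PSM, 2 UBA, 1 UBE2 and 5 USP genes, beside 13.6% of all genes. With 500 bp, separate promoters remained at 0 PSM, 0 UBA, 1 UBE2 and 0 USP genes, beside 6.18% of all genes. Without 1 bp peaks UBA genes gave 1, mean own-strand downstream peaks of UBA genes 1.80, and opposite-strand peaks of USP genes 1.20. Downstream windows to 10000 bp gave own-strand and opposite-strand means of 1.45 and 1.33 in PSM, 1.60 and 0.60 in UBA, 1.95 and 1.91 in UBE2, and 1.07 and 0.933 in USP genes, beside 1.35 and 0.921 in all genes. On the own strand PSM genes thus moved above all genes and USP genes below them, and the cause was not tested. Windows to 50000 bp gave 4.91 and 6.30 in PSM, 6.59 and 6.68 in UBE2, 5.27 and 4.77 in USP genes, and an opposite-strand mean of 3.60 in UBA genes, beside 5.26 and 4.72 in all genes. Pairs with another gene numbered 0 in UBE2 and 1 in USP genes at 200 bp, and 2 in UBE2 genes at 1000 bp. In PSM genes they numbered 6 at 200 bp, beside 8.96% of all genes, and 10 at 1000 bp, beside 12.6%. Leaving out UBE2D2 and the other limits on wide downstream peaks were chosen after the data were seen. With those limits UBE2 genes had 0 such peaks in both cases, and USP genes 0 over 30 bp wide.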

Other observations

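With pairs up to 1000 bp apart, the further member pairs were PSMC6 with ERO1A (927 bp), an oxidoreductase gene of the endoplasmic reticulum, and PSMD5 (941 bp), UBE2T (458 bp) and USP45 (993 bp) with genes named by Ensembl identifiers. In the 25 PSM genes with several peaks, the widest peak was the most upstream one in 12 (48%) and the most downstream one in 10 (40%). Over all 6672 genes with several peaks the shares were 30.7% and 35.8%. Of the PSM genes, 18 had exactly 2 peaks, so that their widest peak is either first or last. Nothing is read from these counts.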
